A study of Mus musculus with 18 samples.

Results

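The transcription factor p53, encoded by Trp53, and 9 genes that it is known to activate (Mdm2, Ccng1, Sesn1, Sesn2, Trp53inp1, Zmat3, Phlda3, Eda2r and Btg2) were followed in bulk RNA-seq of differentiating mouse neural crest cells. These 10 genes, of 55335 gene identifiers in the count files, were taken by name after the identifiers had been matched to mouse gene symbols. Each was found once, and all 10 passed the filter on low counts on both days.

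The study asked how FGF2, a growth factor, acts on the osteoblast differentiation of neural crest cells, and whether it acts through Yap and Taz, the transcriptional co-activators of the Hippo pathway. O9-1 cells, a wildtype line derived from the head of an early mouse embryo, were kept in osteoblast differentiation medium and harvested on d2.5 or d5. Ctrl+vehicle cells (labelled siCtrl no FGF2) received a scrambled siRNA and no FGF2, Ctrl+FGF2 cells (siCtrl with FGF2) the same siRNA with FGF2, and Y/T dKD+FGF2 cells (siY/T with FGF2) pools of siRNAs against Yap and Taz, with FGF2. Each of the 3 groups had 3 libraries on each day, 18 in all, and no group combined the knockdown with vehicle, so the knockdown was measured only in the presence of FGF2. The labels give the day as the batch, so the day of differentiation and any batch cannot be told apart. Nothing in the labels says that the replicates of a group came from separate cultures, so p-values measure the spread between these libraries, which may be technical.

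p53 is a tetrameric DNA-binding protein that is made continuously and kept low by degradation, and it is stabilized by DNA damage, nucleolar stress and other insults. It then raises genes for cell cycle arrest, DNA repair, metabolic control and cell death, and among them its own inhibitor Mdm2, a ubiquitin ligase that returns p53 to the proteasome. Most of its control is on the protein, so a Trp53 transcript level is not a measure of p53 activity. In the neural crest, excess p53 activity is known to kill progenitors and to give craniofacial defects in mice.

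p53 binds a consensus element of 20 bases, made of 4 short repeats. The letters of that element, with at most 2 mismatches and with its 4 core bases kept, were looked for on both strands in RefSeq promoter windows (GRCm38.p6, 250 bases before to 50 after a gene's start). Such a match was present in 1 of the 8 members that had a window searched, Ccng1. It was present in 3 of the 25 other known p53 targets with a window searched (Cdkn1a, Gtse1 and Cd80). Among the 27025 genes with a window searched, 106 had a match (0.392%). The windows searched did not cover every gene, and Pmaip1 was among the other targets left unsearched. The best matches are shown because they mark genes of this pathway that have a start beside letters close to the element. Each has 1 mismatch and is printed on the strand of its gene, and capitals mark the 4 core bases.
Ccng1, chr11:40755462-40755481, minus strand: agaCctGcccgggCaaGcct
Cdkn1a, chr17:29090928-29090947: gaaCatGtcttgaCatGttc
Gtse1, chr15:85859945-85859964: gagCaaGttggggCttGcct
The match starts 195 bases before the start of Ccng1, 51 bases before 1 start of Cdkn1a and 1 base before 1 start of Gtse1. Cdkn1a and Gtse1 each have another window, at a different start, that held no match. A match is a description of the sequence and not a binding site measured here, and no match says only that these letters are not in that window.

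The libraries held 10377151 to 14698525 gene counts each, and a member had between 47 and 8826 counts in a library. Levels are given as CPM (a gene's counts on a common scale of library size), with TMM factors computed over the 18 libraries, as mean ± SD with n = 3 libraries. Counts were tested with edgeR's quasi-likelihood test, and a gene is called higher or lower when its Benjamini-Hochberg adjusted p over all genes tested is under 0.05. Of the targeted genes, Yap1 fell with the knockdown by 0.96 on the log2 scale at d2.5 (SE 0.04, adjusted p = 9.7e-17) and by 1.12 at d5 (SE 0.05, adjusted p = 3.6e-11), and Wwtr1 (Taz) by 0.72 (SE 0.04, adjusted p = 2.6e-15) and by 0.80 (SE 0.04, adjusted p = 4.9e-11). Both transcripts were thus reduced against Ctrl+FGF2 and not removed. At d2.5 Wwtr1 was at 140 ± 1.87 CPM in Ctrl+vehicle, 222 ± 2.96 CPM in Ctrl+FGF2 and 136 ± 5.97 CPM in Y/T dKD+FGF2. Its knockdown libraries of that day overlapped those of Ctrl+vehicle. The neural crest markers Sox10 and Foxd3 had 0 counts in all 18 libraries, while Tfap2a, Twist1 and Sox9 of the same list of 10 were measured in each of them. The summed level of 12 markers of other cell types was 3.42 to 7.91 CPM in a library. In bulk samples such as these, a change in the share of cells that express a gene and a change in RNA per cell cannot be told apart.

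Trp53 and its inhibitor Mdm2 were both higher with FGF2 at d2.5. Trp53 (chr11, 69580359 to 69591873, GRCm38) had 114, 110 and 107 CPM in the Ctrl+vehicle libraries of d2.5, 176, 182 and 186 CPM in the Ctrl+FGF2 libraries, and 170, 167 and 163 CPM in the Y/T dKD+FGF2 libraries. The 3 groups did not overlap, and every library with FGF2 lay above every library without it. The log2 fold change of Ctrl+FGF2 against Ctrl+vehicle was 0.70 (SE 0.04, adjusted p = 7.4e-17), and that of Y/T dKD+FGF2 against Ctrl+FGF2 was −0.13 (SE 0.04, adjusted p = 0.00761). The second is lost without Ctrl+FGF2 replicate 3, where it is −0.12 with an adjusted p of 0.0560. These comparisons of a day share the Ctrl+FGF2 libraries.

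At d5, Trp53 was lower in every group, at 67.5, 63.0 and 66.8 CPM in Ctrl+vehicle, 76.7, 75.8 and 75.4 CPM in Ctrl+FGF2, and 78.0, 83.7 and 80.7 CPM in Y/T dKD+FGF2. The groups were close together but again did not overlap. FGF2 raised Trp53 by 0.22 on the log2 scale (SE 0.05, adjusted p = 8.5e-04), and the difference with the knockdown, 0.08 (SE 0.05, adjusted p = 0.186), did not pass the test. Over the 6 groups the level of Trp53 thus ran from Ctrl+FGF2 at d2.5 (181 ± 5.06 CPM) through Y/T dKD+FGF2 (167 ± 3.15 CPM) and Ctrl+vehicle (111 ± 3.53 CPM) of that day to Y/T dKD+FGF2 (80.8 ± 2.83 CPM), Ctrl+FGF2 (75.9 ± 0.655 CPM) and Ctrl+vehicle (65.7 ± 2.40 CPM) at d5. Among neighbours of the same day, Y/T dKD+FGF2 and Ctrl+FGF2 of d5 did not pass the test. Ctrl+vehicle of d2.5 and Y/T dKD+FGF2 of d5 were not tested against each other, but their libraries did not overlap. A processed pseudogene, Trp53-ps, is annotated on chromosome 17, and it held 133 counts over the 18 libraries against 26285 for Trp53, so reads that fit both places may be missing from Trp53.

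Mdm2 (chr10, 117688875 to 117710758, minus strand) had 91.4, 90.1 and 94.6 CPM in Ctrl+vehicle at d2.5, against 127, 128 and 125 CPM in Ctrl+FGF2 and 128, 137 and 128 CPM in Y/T dKD+FGF2. Both groups with FGF2 lay above vehicle and overlapped each other. Its log2 fold change with FGF2 was 0.45 (SE 0.04, adjusted p = 2.1e-11), and with the knockdown 0.04 (SE 0.04, adjusted p = 0.467). At d5 the order was reversed, with 83.9, 89.2 and 87.1 CPM in Ctrl+vehicle above 71.4, 79.5 and 75.3 CPM in Ctrl+FGF2. There FGF2 lowered Mdm2 by a log2 fold change of −0.19 (SE 0.05, adjusted p = 0.00400), on the day on which Trp53 was slightly raised. The knockdown libraries of d5, at 81.9, 77.8 and 81.6 CPM, overlapped the Ctrl+FGF2 libraries, and the difference of 0.09 (SE 0.05, adjusted p = 0.209) did not pass. Mdm4, the partner of Mdm2 that masks the activation domain of p53, was between 92.0 and 101 CPM in the group means and passed the test in none of the FGF2 and knockdown comparisons (log2 fold changes of 0.07 and −0.03 with FGF2 at d2.5 and d5, and of 0.05 and 0.06 with the knockdown; adjusted p = 0.164, 0.688, 0.518 and 0.425).

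**Figure D1:**
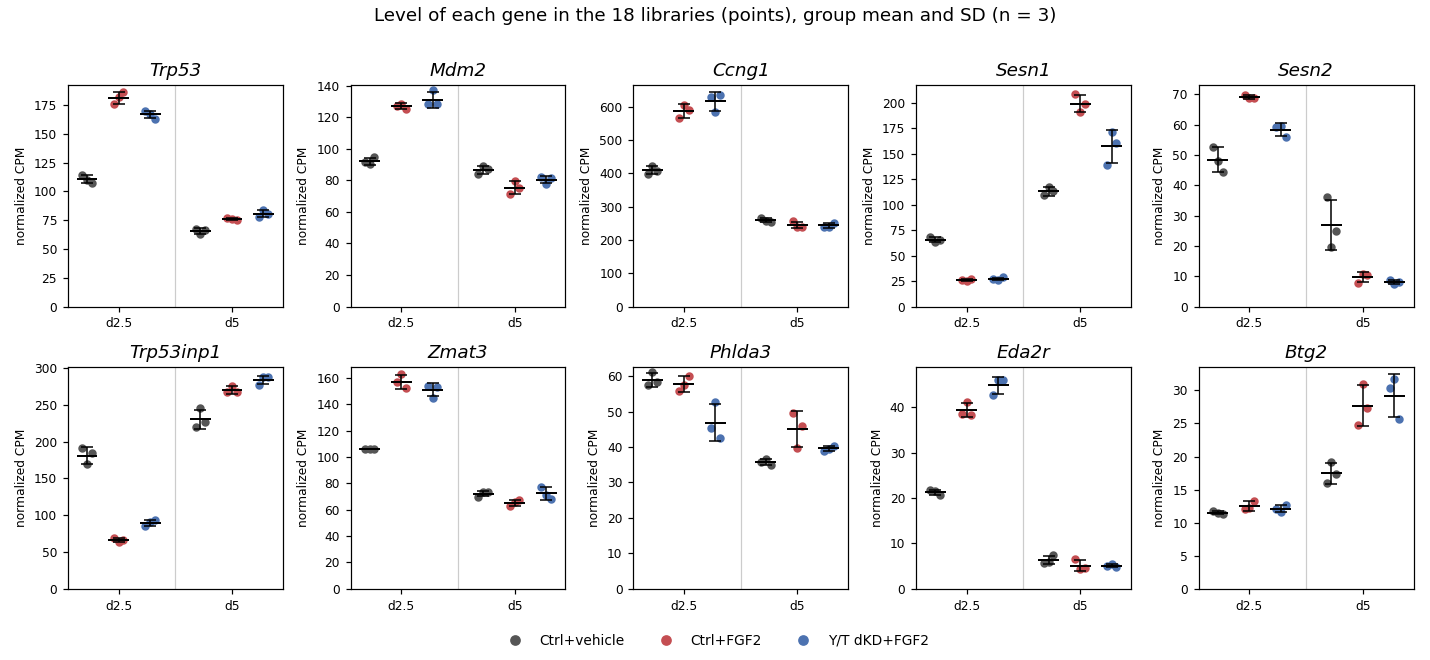
Level of each of the 10 genes in normalized CPM (y axis, from 0) by day and group; points are the 18 libraries, bars the group mean and SD (n = 3). Trp53, Mdm2, Ccng1, Zmat3 and Eda2r are higher with FGF2 at d2.5, where Sesn1 and Trp53inp1 are lower, and Sesn1 at d5 is highest in Ctrl+FGF2 (199 ± 8.47 CPM).

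Of the 8 targets besides Mdm2, 4 rose with FGF2 at d2.5 like Trp53, 2 fell and 2 did not pass the test. Ccng1, which encodes cyclin G1, a protein that recruits a phosphatase to Mdm2, had 398, 423 and 408 CPM in Ctrl+vehicle at d2.5 and 565, 606 and 590 CPM in Ctrl+FGF2. The groups did not overlap, and the log2 fold change was 0.51 (SE 0.03, adjusted p = 3.7e-14). Zmat3, a zinc finger protein that binds RNA, had 106 CPM in each of the 3 vehicle libraries and 157, 163 and 152 CPM with FGF2 (0.56, SE 0.04, adjusted p = 4.6e-14). Eda2r, the receptor of the ectodysplasin isoform A2, was the most changed of the group that rose, with 21.7, 21.5 and 20.6 CPM in vehicle and 38.6, 41.1 and 38.4 CPM with FGF2 (0.87, SE 0.06, adjusted p = 1.5e-13). For each of these 3 genes all FGF2 libraries were above all vehicle libraries.

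Both sestrins among the members, proteins that respond to stress and restrain the growth kinase mTORC1, moved in opposite directions. Sesn1 fell from 68.4, 63.8 and 65.3 CPM in Ctrl+vehicle at d2.5 to 26.3, 25.0 and 26.7 CPM in Ctrl+FGF2, a log2 fold change of −1.35 (SE 0.05, adjusted p = 8.8e-20). Sesn2 rose from 52.7, 48.0 and 44.4 CPM to 69.9, 68.6 and 68.8 CPM, a log2 fold change of 0.50 (SE 0.05, adjusted p = 7.2e-10). Trp53inp1, a nuclear protein that promotes p53-dependent cell death and autophagy, fell furthest, from 191, 169 and 185 CPM to 68.7, 63.2 and 66.8 CPM (−1.46, SE 0.05, adjusted p = 1.7e-22). None of these 3 genes had overlapping groups. Phlda3, which competes with the kinase Akt for membrane lipids, was at 59.0 ± 1.95 CPM in vehicle and 57.7 ± 2.21 CPM with FGF2 (−0.04, SE 0.06, adjusted p = 0.516). Btg2, an antiproliferative protein that recruits a deadenylase to mRNA, was at 11.5 ± 0.231 and 12.5 ± 0.706 CPM (0.11, SE 0.09, adjusted p = 0.289).

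In total, FGF2 at d2.5 raised 6 members and lowered 2, and 2 did not pass the test. Of all 13677 genes tested in that comparison, 67.6% were called, 33.5% higher and 34.1% lower, so 8 called genes of 10 is not far above the background, and the median log2 fold change was 0.47 over the members and 0.00 over all genes. The groups did not overlap in 9 members, against 70.5% of all genes.

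At d5, 5 members were higher with FGF2 and 3 lower, where 47.2% of the 13304 genes tested were called (23.5% higher and 23.7% lower), and the median over the members was 0.07 (0.02 over all genes). The genes were not those of d2.5 in the same directions. Sesn1, lowered at d2.5, now had 208, 191 and 199 CPM in Ctrl+FGF2 against 109, 117 and 113 CPM in Ctrl+vehicle (0.83, SE 0.06, adjusted p = 3.5e-09). Sesn2, raised at d2.5, now had 7.81, 10.8 and 10.3 CPM in Ctrl+FGF2 against 36.1, 19.8 and 25.0 CPM in Ctrl+vehicle (−1.45, SE 0.18, adjusted p = 3.1e-06). The vehicle libraries of Sesn2 were spread widely, yet the lowest of them was above the highest library with FGF2.

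Trp53inp1 was raised by a log2 fold change of 0.24 (SE 0.04, adjusted p = 1.0e-04), with 267, 276 and 267 CPM in Ctrl+FGF2 above 220, 245 and 226 CPM in Ctrl+vehicle. Btg2 rose from 16.0, 19.2 and 17.4 CPM to 24.7, 30.9 and 27.4 CPM (0.67, SE 0.10, adjusted p = 3.1e-05), and Phlda3 from 35.7, 36.7 and 35.0 CPM to 49.7, 39.6 and 46.0 CPM (0.34, SE 0.07, adjusted p = 7.6e-04). In all 3 of these genes the groups did not overlap. Ccng1 (259 ± 6.52 and 246 ± 9.03 CPM in vehicle and FGF2) and Eda2r (6.36 ± 0.874 and 5.14 ± 1.21 CPM) did not pass the test, at −0.07 (SE 0.04, adjusted p = 0.172) and −0.31 (SE 0.17, adjusted p = 0.146). Without the first Ctrl+FGF2 replicate, Eda2r was called lower (−0.51, adjusted p = 0.0213). Zmat3 was called lower by −0.14 (SE 0.05, adjusted p = 0.0483), a call that was lost in 5 of the 6 fits without 1 library. Each of 8 members had groups that did not overlap, against 54.5% of all genes.

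**Figure D2:**
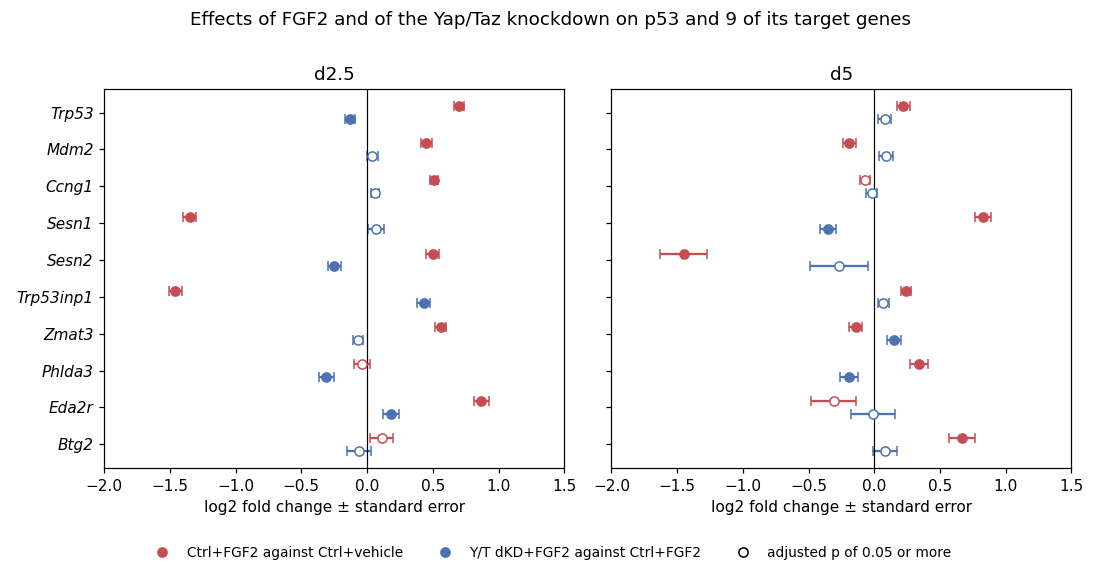
Log2 fold change (x axis) with its standard error for each gene, d2.5 on the left and d5 on the right, for Ctrl+FGF2 against Ctrl+vehicle (red) and Y/T dKD+FGF2 against Ctrl+FGF2 (blue); open points have an adjusted p of 0.05 or more. The FGF2 effects reach from −1.46 (Trp53inp1) to 0.87 (Eda2r) at d2.5, and the knockdown effects stay between −0.35 and 0.43 on both days.

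The effect of FGF2 differed between the days for each of the 10 members by a test of the difference itself in 1 fit of the 18 libraries. There 60.9% of 14198 genes were called, 31.8% higher and 29.1% lower at d5. The signed effect, not its size, was higher at d5 for Sesn1 (difference of the log2 effects 2.16, SE 0.09, adjusted p = 6.6e-19), Trp53inp1 (1.68, SE 0.07, adjusted p = 6.6e-19), Btg2 (0.53, SE 0.14, adjusted p = 0.00139) and Phlda3 (0.36, SE 0.10, adjusted p = 0.00235). The signed effect was lower at d5 for Sesn2 (−1.97, SE 0.18, adjusted p = 5.6e-11), Eda2r (−1.21, SE 0.16, adjusted p = 2.0e-07), Zmat3 (−0.72, SE 0.07, adjusted p = 1.0e-10), Mdm2 (−0.66, SE 0.06, adjusted p = 2.0e-10), Ccng1 (−0.60, SE 0.06, adjusted p = 1.4e-10) and Trp53 (−0.50, SE 0.06, adjusted p = 2.0e-08). The effects of Sesn1, Trp53inp1, Sesn2, Mdm2 and Zmat3 changed sign between calls on the 2 days, the last with the d5 call that 1 library can end.

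**Figure D3:**
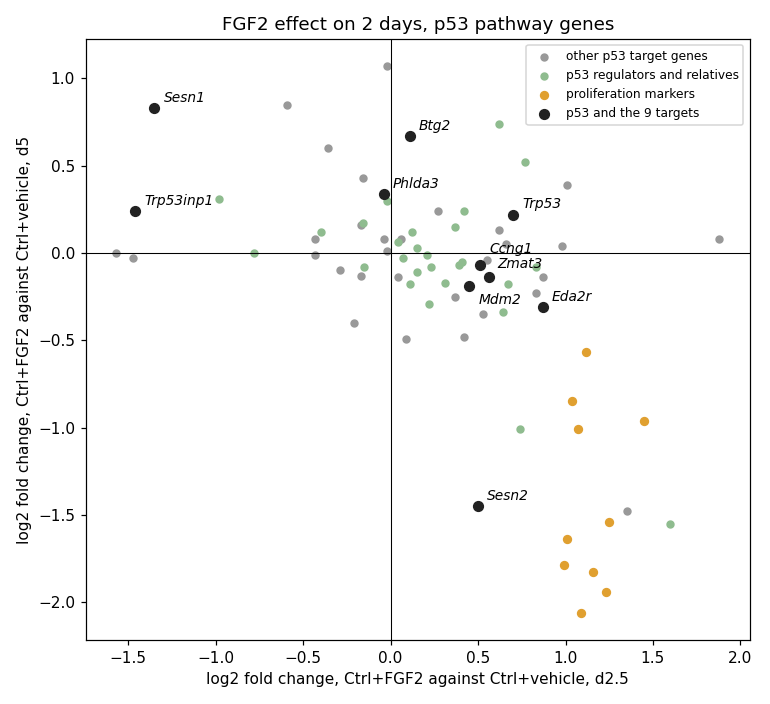
Log2 fold change of Ctrl+FGF2 against Ctrl+vehicle at d2.5 (x axis) and at d5 (y axis), 1 point per gene, for p53 and its 9 targets (black), other p53 targets (grey), p53 regulators (green) and proliferation markers (orange). Sesn1 (−1.35 and 0.83) lies upper left and Sesn2 (0.50 and −1.45) lower right, on the side where the proliferation markers lie.

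Proliferation markers moved on the same libraries, and their part in the members' changes was not tested. The summed level of 10 markers (among them Mki67, Top2a, Ccnb1 and Pcna) was 936 to 1059 CPM in Ctrl+vehicle at d2.5, 2175 to 2234 CPM in Ctrl+FGF2 and 2381 to 2503 CPM in Y/T dKD+FGF2. At d5 it was 462 to 771 CPM, 171 to 296 CPM and 358 to 399 CPM in the same order. All 10 were called higher with FGF2 at d2.5 (median log2 fold change 1.10), and all 10 lower at d5 (median −1.59). With the knockdown 5 were higher at d2.5 and 9 at d5, and none was lower. Of all genes tested, 33.5% were called higher with FGF2 at d2.5 and 23.7% lower with it at d5. With the knockdown, 10.8% were called higher at d2.5 and 15.6% at d5.

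Osteoblast and mesenchyme markers also moved on the same libraries, and their part was likewise not tested. The summed level of 5 osteoblast markers (Runx2, Sp7, Alpl, Ibsp and Bglap) at d2.5 was 619 to 716 CPM in Ctrl+vehicle, 155 to 165 CPM in Ctrl+FGF2 and 207 to 218 CPM in Y/T dKD+FGF2, and at d5 it was 419 to 488, 285 to 354 and 484 to 560 CPM. With FGF2, the 4 that could be tested at d2.5 were lower, and at d5, 2 were higher and 3 lower. With the knockdown 2 were higher at d2.5 and all 5 at d5. Of 5 mesenchyme markers (Prrx1, Pdgfra, Vim, Col1a1 and Col1a2), 1 was higher and 4 lower with FGF2 at d2.5, and 3 were higher and 2 lower at d5. With the knockdown 1 was higher and 1 lower at d2.5, and 2 were higher and 3 lower at d5. Of all genes tested, 67.6% and 47.2% were called with FGF2 at d2.5 and d5, and 24.5% and 31.7% with the knockdown. The summed level of the mesenchyme markers was 35000 to 35762 CPM in Ctrl+vehicle at d2.5, 14720 to 14864 CPM in Ctrl+FGF2 and 14538 to 14968 CPM in Y/T dKD+FGF2. At d5 it was 74555 to 77550, 44395 to 48650 and 53972 to 56394 CPM. Most of this sum was Col1a1 and Col1a2, at 12636 ± 135 and 17595 ± 71.8 CPM in Ctrl+vehicle at d2.5 and 2203 ± 58.6 and 5830 ± 38.2 CPM in Ctrl+FGF2. Vim went the other way, from 3430 ± 191 to 5383 ± 42.2 CPM. None of these 10 markers was at 0 in all libraries of a group, but Alpl and Bglap were near the floor with FGF2 at d2.5. Alpl was at 115 ± 12.2 CPM in Ctrl+vehicle and had 2, 2 and 2 counts in Ctrl+FGF2 and 1, 3 and 0 in Y/T dKD+FGF2. Bglap had 15, 10 and 5 counts in Ctrl+vehicle, 2, 1 and 1 in Ctrl+FGF2 and 0, 1 and 0 in Y/T dKD+FGF2.

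The knockdown of Yap and Taz, always with FGF2, gave the members log2 fold changes between −0.31 and 0.43 at d2.5 and between −0.35 and 0.15 at d5. At d2.5, 2 were higher and 3 lower, where 24.5% of all genes were called (10.8% higher and 13.6% lower), and the groups did not overlap in 5 (39.4% of all genes). The members' median log2 fold change was −0.01, and that of all genes 0.00. Trp53inp1 had 85.0, 90.6 and 93.3 CPM with the knockdown against 68.7, 63.2 and 66.8 CPM in Ctrl+FGF2 (0.43, SE 0.05, adjusted p = 2.5e-07). These levels lay between those of Ctrl+FGF2 and Ctrl+vehicle. Phlda3 had 45.4, 52.8 and 42.6 CPM with the knockdown against 55.7, 57.4 and 60.1 CPM (−0.31, SE 0.06, adjusted p = 3.6e-04). It was thus below both control groups, since FGF2 alone had not moved it beyond the spread. Sesn2 had 59.3, 59.7 and 55.8 CPM against 69.9, 68.6 and 68.8 CPM (−0.25, SE 0.05, adjusted p = 5.3e-04), and its adjusted p was 0.0509 when all 18 libraries shared 1 fit.

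Eda2r had 42.8, 46.0 and 46.0 CPM with the knockdown at d2.5, above all Ctrl+FGF2 libraries (0.18, SE 0.06, adjusted p = 0.0163). That call was lost in 4 of the 6 fits without 1 library, where the log2 fold change was 0.16 or 0.17. Trp53, given above, was the other gene called lower. Ccng1 (616 ± 28.0 CPM with the knockdown; 0.06, SE 0.03, adjusted p = 0.217), Zmat3 (151 ± 4.78 CPM; −0.07, SE 0.04, adjusted p = 0.199), Sesn1 (27.4 ± 1.15 CPM; 0.07, SE 0.06, adjusted p = 0.490) and Btg2 (12.1 ± 0.523 CPM; −0.06, SE 0.09, adjusted p = 0.712) did not pass, like Mdm2.

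At d5, 1 member was higher and 2 were lower with the knockdown, where 31.7% of genes were called (15.6% higher and 16.1% lower), and 4 had groups that did not overlap (45.0% of all genes). Calls in 3 of 10 members are thus near the background. Sesn1 had 139, 171 and 160 CPM against 208, 191 and 199 CPM in Ctrl+FGF2 (−0.35, SE 0.06, adjusted p = 1.0e-04), and it was the only one of the 3 calls that was kept in every fit without 1 library. Its knockdown libraries remained above the 109 to 117 CPM of Ctrl+vehicle. Zmat3 (0.15, SE 0.05, adjusted p = 0.0490) and Phlda3 (−0.19, SE 0.07, adjusted p = 0.0459) were each lost in 5 of the 6 such fits, and the groups of Phlda3 overlapped. Trp53inp1, at 277, 287 and 287 CPM, lay above all Ctrl+FGF2 libraries without passing the test (0.07, SE 0.04, adjusted p = 0.213). Sesn2 (8.11 ± 0.653 CPM; −0.27, SE 0.22, adjusted p = 0.386), Btg2 (29.2 ± 3.24 CPM; 0.08, SE 0.09, adjusted p = 0.585), Ccng1 (244 ± 6.78 CPM; −0.02, SE 0.04, adjusted p = 0.774) and Eda2r (5.07 ± 0.310 CPM; −0.01, SE 0.17, adjusted p = 0.966) did not pass.

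The knockdown effect differed between the days in 4 members, against 20.9% of all genes (11.6% higher and 9.35% lower at d5). It was higher at d5 for Trp53 (0.21, SE 0.06, adjusted p = 0.00884) and Zmat3 (0.21, SE 0.06, adjusted p = 0.0199), and lower at d5 for Sesn1 (−0.42, SE 0.09, adjusted p = 0.00142) and Trp53inp1 (−0.36, SE 0.07, adjusted p = 2.7e-04). The call of Zmat3 was lost in 5 of the 12 fits without 1 library.

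Y/T dKD+FGF2 was also compared directly with Ctrl+vehicle, a comparison in which FGF2 and the knockdown differ together and cannot be told apart. At d2.5, 6 members were higher and 3 lower, where 69.8% of genes were called (34.1% higher and 35.7% lower). The fold changes of Eda2r (1.06, SE 0.06, adjusted p = 1.2e-15), Ccng1 (0.57, SE 0.03, adjusted p = 2.5e-15), Mdm2 (0.49, SE 0.04, adjusted p = 3.1e-12) and Sesn1 (−1.28, SE 0.06, adjusted p = 4.9e-19) stand beside 0.87, 0.51, 0.45 and −1.35 for FGF2 with the scrambled siRNA. Those of Trp53 (0.57, SE 0.04, adjusted p = 1.8e-14), Zmat3 (0.49, SE 0.04, adjusted p = 1.4e-12), Sesn2 (0.25, SE 0.05, adjusted p = 2.0e-04) and Trp53inp1 (−1.04, SE 0.05, adjusted p = 6.3e-19) stand beside 0.70, 0.56, 0.50 and −1.46. Phlda3 was called lower in this comparison (−0.35, SE 0.06, adjusted p = 6.8e-06). At d5, 4 members were higher and 1 was lower, where 41.8% of genes were called (20.7% higher and 21.1% lower). The values were −1.72 (SE 0.18, adjusted p = 8.2e-07) for Sesn2, 0.75 (SE 0.10, adjusted p = 1.1e-05) for Btg2, 0.48 (SE 0.06, adjusted p = 4.2e-06) for Sesn1, and 0.31 for both Trp53 (SE 0.05, adjusted p = 4.6e-05) and Trp53inp1 (SE 0.04, adjusted p = 8.5e-06).

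Between the days most members were called in every group, although day and batch cannot be told apart. In Ctrl+vehicle, 3 members were higher at d5 and 6 lower, where 66.4% of genes were called (33.1% higher and 33.2% lower). Mdm2 did not pass the test there (−0.08, SE 0.04, adjusted p = 0.102). Both groups with FGF2 had 3 higher and 7 lower, where 41.2% of genes were called higher and 38.8% lower for Ctrl+FGF2 (80.0% together), and 40.3% and 38.1% for Y/T dKD+FGF2 (78.4% together). Sesn1, Trp53inp1 and Btg2 were the genes higher at d5 in all 3 groups. In Ctrl+FGF2 the log2 fold changes were 2.94 for Sesn1 (SE 0.06, adjusted p = 1.2e-26), 2.02 for Trp53inp1 (SE 0.05, adjusted p = 3.6e-25) and 1.15 for Btg2 (SE 0.09, adjusted p = 1.7e-12). Eda2r fell to 4.32 to 6.53 CPM in that group, a log2 fold change of −2.94 (SE 0.10, adjusted p = 1.1e-21), and Sesn2 fell by 2.83 (SE 0.12, adjusted p = 9.5e-19). Trp53 and Ccng1 each fell by 1.26 (SE 0.04 for both, adjusted p = 4.3e-22 and 2.0e-22).

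Per length of transcript, the order of the genes changed with the day. In CPM per kilobase of exon, Ccng1 was the highest member in all 6 groups, at 167 ± 5.93 in Ctrl+FGF2 of d2.5 and 69.9 ± 2.57 in Ctrl+FGF2 of d5. In Ctrl+FGF2 of d2.5, Trp53 (44.8 ± 1.25) and Phlda3 (37.0 ± 1.42) came next, and Sesn1 (6.52 ± 0.224) lay beside Eda2r (6.68 ± 0.259), the 2 differing by less than their SDs. In Ctrl+FGF2 of d5, Sesn1 (50.1 ± 2.13) and Trp53inp1 (41.6 ± 0.813) followed Ccng1, above Phlda3 (28.9 ± 3.29) and Trp53 (18.8 ± 0.162), and Eda2r was last at 0.873 ± 0.205.

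Across the 18 libraries, the log2 levels of Ccng1, Zmat3, Eda2r and Mdm2 followed that of Trp53 with Pearson's r of 0.97, 0.97, 0.95 and 0.92. Sesn2 and Phlda3 followed it less closely (0.78 and 0.70). Btg2, Sesn1 and Trp53inp1 ran opposite to it (−0.72, −0.94 and −0.95). These values describe 18 libraries that fall into 6 groups of 3 on 2 days, and they are given without a test. Over 14198 genes, those most like Trp53 by this measure were Slc38a1 (0.996), Fkbp4 (0.993) and Eif3d (0.993), and those most like Mdm2 were Lrpprc (0.989), Atm (0.988) and Tpr (0.987), so none of the 9 targets was among the 3 closest to Trp53.

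**Figure D4:**
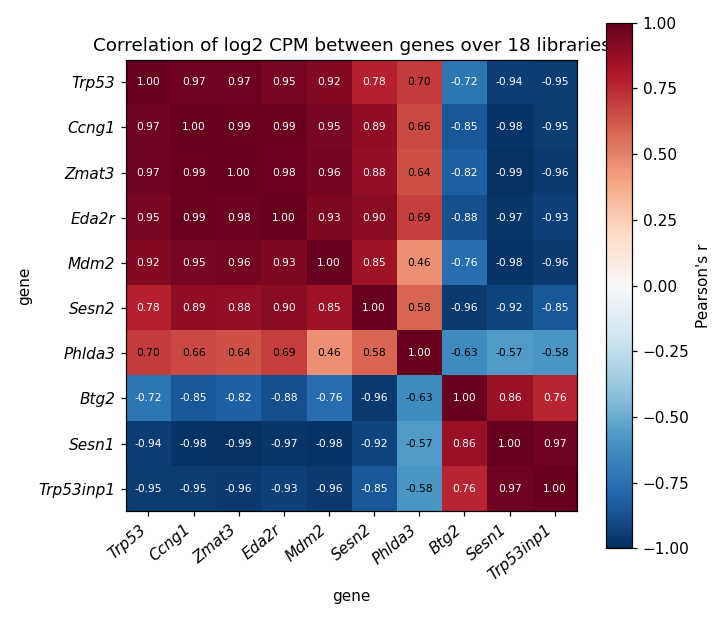
Pearson's r between the log2 CPM of each pair of the 10 genes over the 18 libraries (colour, from −1 to 1). Trp53, Ccng1, Zmat3, Eda2r and Mdm2 form 1 block of values of 0.92 or more, against which Sesn1 and Trp53inp1 run with values of −0.93 or less.

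Of 32 other known p53 targets, 31 could be tested at d2.5 and 30 at d5. With FGF2 at d2.5, 14 were higher and 8 lower (median log2 fold change 0.06), and at d5, 6 were higher and 4 lower (0.01), where 67.6% and 47.2% of all genes were called. With the knockdown, 4 were higher and 11 lower at d2.5 (−0.12), and 6 were higher and 10 lower at d5 (−0.04), where 24.5% and 31.7% of all genes were called, 13.6% and 16.1% lower. The medians over all genes tested were between 0.00 and 0.02 in these comparisons.

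Cdkn1a, the cyclin-dependent kinase inhibitor p21 and the best known arrest gene of p53, did not follow Trp53 with FGF2. It had 215, 221 and 209 CPM in Ctrl+vehicle at d2.5, 187, 189 and 186 CPM in Ctrl+FGF2, and 167, 170 and 165 CPM in Y/T dKD+FGF2. The 3 groups did not overlap, and both steps were called, at −0.21 with FGF2 (SE 0.03, adjusted p = 2.7e-06) and −0.17 with the knockdown (SE 0.04, adjusted p = 6.3e-04). At d5 it had 118, 106 and 114 CPM in Ctrl+vehicle, 81.2, 85.7 and 86.6 CPM in Ctrl+FGF2, and 118, 121 and 117 CPM with the knockdown. Cdkn1a was thus lower with FGF2 on both days (−0.40 at d5, SE 0.05, adjusted p = 2.7e-06), and with the knockdown it was lower at d2.5 and higher at d5 (0.48, SE 0.05, adjusted p = 5.1e-07), a difference of the effects of 0.65 (SE 0.06, adjusted p = 2.1e-09).

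The death genes Bax and Bbc3 (Puma), which act at the mitochondrion, were raised by FGF2 at d2.5 and were back near vehicle with the knockdown. Bax had 21.3, 22.8 and 22.0 CPM in Ctrl+vehicle, 33.2, 36.5 and 32.7 CPM in Ctrl+FGF2, and 21.0, 26.1 and 24.8 CPM in Y/T dKD+FGF2. Its log2 fold changes were 0.62 with FGF2 (SE 0.07, adjusted p = 9.8e-09) and −0.51 with the knockdown (SE 0.07, adjusted p = 5.4e-06). Bbc3 had 8.56, 7.68 and 7.42 CPM, 13.9, 15.6 and 14.0 CPM, and 8.12, 8.09 and 6.48 CPM in the same order (0.87, SE 0.11, adjusted p = 1.5e-08 and −0.95, SE 0.11, adjusted p = 1.5e-07). In both genes every Ctrl+FGF2 library was above all others of that day, and the knockdown libraries overlapped those of vehicle. At d5 neither passed the test with FGF2 (0.13, SE 0.09, adjusted p = 0.239 for Bax and −0.14, SE 0.16, adjusted p = 0.504 for Bbc3), and Bbc3 was lower with the knockdown (−0.64, SE 0.18, adjusted p = 0.0109).

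Among the other targets called and with a mean log2 CPM reaching 1, those with the largest changes with FGF2 at d2.5 were Plk3, a stress kinase of the polo family (1.88, SE 0.10, adjusted p = 3.5e-17), and Gtse1, a protein of G2 and S phase (1.35, SE 0.06, adjusted p = 3.8e-18), upward, and the membrane protein Perp (−1.57, SE 0.14, adjusted p = 9.6e-12) and the death receptor Fas (−1.47, SE 0.14, adjusted p = 1.0e-10) downward. At d5 they were the kinase Plk2 (1.07, SE 0.07, adjusted p = 6.4e-10) and the reductase Dcxr (0.85, SE 0.13, adjusted p = 3.7e-05) upward, and Gtse1 (−1.48, SE 0.25, adjusted p = 9.3e-05) and Pmaip1, which encodes Noxa (−0.49, SE 0.15, adjusted p = 0.0134), downward. Gtse1 changed sign between the days as the proliferation markers did. With the knockdown at d2.5 they were Fas (0.50, SE 0.17, adjusted p = 0.0248) and Ei24 (0.24, SE 0.05, adjusted p = 8.3e-04) upward, and Bbc3 and Plk3 (−0.60, SE 0.08, adjusted p = 2.8e-06) downward. At d5 they were Pmaip1 (0.66, SE 0.15, adjusted p = 0.00242) and the DNA damage gene Gadd45a (0.61, SE 0.08, adjusted p = 9.8e-06) upward, and Perp (−2.40, SE 0.17, adjusted p = 6.7e-09) and Fas (−0.83, SE 0.11, adjusted p = 8.1e-06) downward. Perp had 11.8, 11.5 and 10.6 CPM in Ctrl+vehicle at d5, 9.37, 12.9 and 11.0 CPM in Ctrl+FGF2 and 2.21, 1.91 and 2.24 CPM with the knockdown, which stood far below both control groups.

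**Figure D5:**
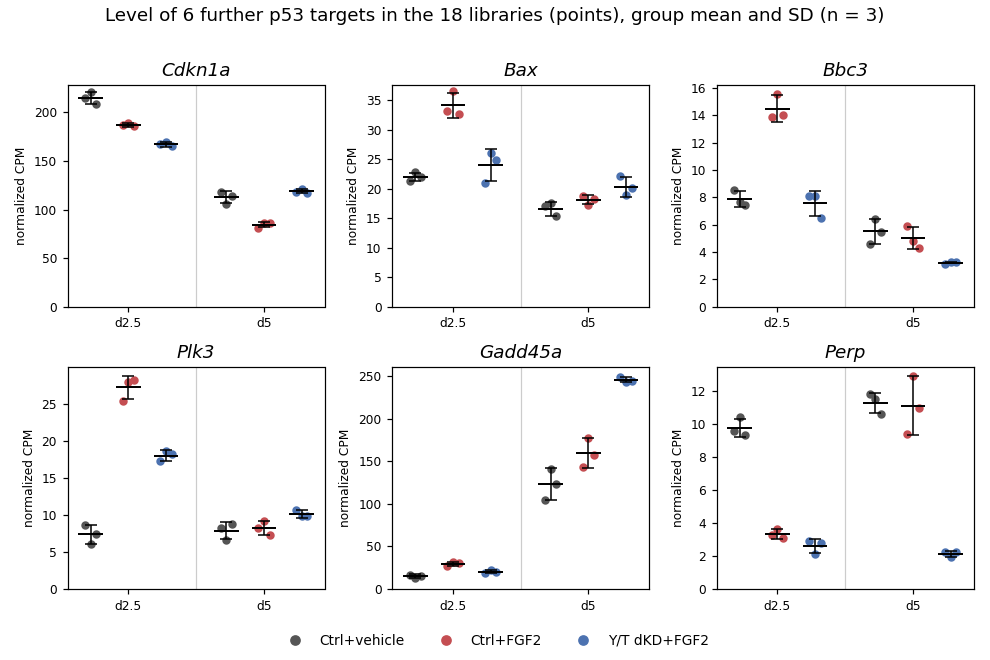
Level of 6 further p53 targets in normalized CPM (y axis, from 0) by day and group; points are the 18 libraries, bars the group mean and SD (n = 3). Bax and Bbc3 are highest in Ctrl+FGF2 at d2.5, Gadd45a is highest with the knockdown at d5 (246 ± 2.89 CPM), and Perp at d5 is low in the knockdown libraries alone (2.12 ± 0.183 CPM).

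Of 30 regulators and relatives of p53, 27 could be tested at d2.5 and 28 at d5. With FGF2 at d2.5, 18 were higher and 5 lower (median log2 fold change 0.22), and at d5, 7 were higher and 6 lower (−0.02), where 67.6% and 47.2% of all genes were called, so the share at d5 was that of the background. Atm, the kinase that signals DNA breaks to p53, was among the higher at d2.5 (0.64, SE 0.05, adjusted p = 4.3e-12) and the lower at d5 (−0.34, SE 0.07, adjusted p = 7.8e-04). Chek1, the checkpoint kinase of DNA replication, rose most at d2.5 (1.60, SE 0.08, adjusted p = 1.7e-17) and fell most at d5 (−1.55, SE 0.19, adjusted p = 3.1e-06), again like the proliferation markers. Setd7, a lysine methyltransferase that acts on p53, fell most at d2.5 (−0.98, SE 0.04, adjusted p = 3.4e-21), and Hipk2, a kinase that phosphorylates p53, rose most at d5 (0.74, SE 0.09, adjusted p = 1.6e-06).

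With the knockdown, 5 regulators were higher and 4 lower at d2.5 (median 0.02), and 3 were higher and 5 lower at d5 (0.06), where 24.5% and 31.7% of all genes were called, so both counts are near the background. Of those called whose mean log2 CPM reached 1, the largest at d2.5 were Trp53bp2 (0.22, SE 0.04, adjusted p = 4.6e-04) and Ppp1r13l (−0.34, SE 0.12, adjusted p = 0.0324), and the largest at d5 were Chek1 (1.19, SE 0.20, adjusted p = 1.7e-04) and Ppp1r13b (−0.32, SE 0.09, adjusted p = 0.0117). Trp53bp2, Ppp1r13b and Ppp1r13l encode the ASPP proteins, of which the first 2 are known to steer p53 to death genes and the last to inhibit it. Of the relatives and upstream regulators near zero, Trp73 had 0 counts in all 18 libraries, and Cdkn2a, whose product Arf releases p53 from Mdm2, had 12 counts over the 18 libraries with at most 3 in 1 library. Trp63 had 201 counts over the 18 libraries, was not tested at d2.5 and was called lower with the knockdown at d5 from that low level (−1.34, SE 0.35, adjusted p = 0.00643).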

How the data were processed

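The 18 libraries were described in the labels as poly(A) RNA, prepared with the SMARTER mRNA-Seq kit. The authors deposited unnormalized read counts per gene, 1 file a library, laid out as STAR writes its gene counts. The submitters' processing notes name FastQC, STAR, Picard and featureCounts and the build mm10, with no versions; a differential test for the RNA-seq is not given in the sources used here. Reads on several places were not counted in such files, which lowers genes with near-identical copies.

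Reverse-strand counts, 96.0% to 96.6% of those assigned by strand, were analysed. Dropped were the 4 entries that name no gene, 27.0% to 34.4% of a library. Of 55335 identifiers, 55154 matched GENCODE M21 on GRCm38 (54587 with the version). No member shares exon bases with another annotated gene.

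The main test was edgeR's quasi-likelihood test (edgeR 4.0.16, R 4.3.3) with TMM scaling after filterByExpr, in 1 fit of the 9 libraries of each day and, for differences between days, in 1 fit of all 18. The scripts were tested on simulated counts. Alternatives were DESeq2 1.42.0, other scalings and filters, unstranded counts, fits with other libraries, a replicate block, and fits without each library in turn. Correlations used log2 CPM with a prior count of 2.

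The members and lists were chosen with earlier results of these data known. Named beside the members are Cdkn1a, Bax, Bbc3 and Mdm4, and in each FGF2 and knockdown comparison the 2 other targets and 1 regulator with the largest called change in each direction at a mean log2 CPM of at least 1. Perp, Gadd45a, Atm, Trp63, Trp73 and Cdkn2a are given further values because of those values.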

Additional observations from a re-analysis of the deposited data

Results flagged for a closer look

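The effect of FGF2 differed between d2.5 and d5, by a test of the difference itself (edgeR's quasi-likelihood test, Benjamini-Hochberg adjusted), for all 10 members, whose values are given above, where 60.9% of all genes differed in this way. They run from −1.97 for Sesn2 to 2.16 for Sesn1, with 1.68 for Trp53inp1, 0.53 for Btg2, 0.36 for Phlda3, −0.50 for Trp53, −0.60 for Ccng1, −0.66 for Mdm2, −0.72 for Zmat3 and −1.21 for Eda2r (log2, effect at d5 minus effect at d2.5).

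Of the other targets named, the effect was lower at d5 for Gtse1 (−2.85, adjusted p = 7.7e-12), Plk3 (−1.82, adjusted p = 2.0e-10), Bbc3 (−1.03, adjusted p = 2.3e-05), Gadd45a (−0.64, adjusted p = 3.8e-04), Pmaip1 (−0.61, adjusted p = 0.0428), Bax (−0.51, adjusted p = 5.3e-04) and Cdkn1a (−0.21, adjusted p = 0.00227). It was higher at d5 for Perp (1.55, adjusted p = 8.8e-09), Fas (1.42, adjusted p = 4.7e-09), Dcxr (1.41, adjusted p = 1.3e-07) and Plk2 (1.07, adjusted p = 1.7e-11). Among the regulators it was lower for Chek1 (−3.18, adjusted p = 1.3e-14), Ppp1r13l (−0.54, adjusted p = 0.0139) and Trp53bp2 (−0.27, adjusted p = 0.00100), and higher for Setd7 (1.26, adjusted p = 5.3e-16) and Ppp1r13b (0.76, adjusted p = 9.0e-06). Perp and Fas were lowered by FGF2 at d2.5, and their FGF2 and vehicle libraries overlapped at d5. Mdm4, Hipk2 and Ei24, also named above, did not pass this test. Most of the other targets and regulators were named for a large change on a single day in these same libraries. That choice favours a difference between the days, so these lists do not show how common such differences are in the pathway.

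The effect of the knockdown differed between the days for Trp53 (0.21), Zmat3 (0.21), Sesn1 (−0.42) and Trp53inp1 (−0.36). Of the other targets it was higher at d5 for Gadd45a (1.16, adjusted p = 4.0e-07), Plk3 (0.89, adjusted p = 8.8e-05), Pmaip1 (0.88, adjusted p = 0.0168), Bax (0.67, adjusted p = 8.4e-05) and Cdkn1a (0.65, adjusted p = 2.1e-09), and lower for Perp (−2.04, adjusted p = 9.3e-07), Fas (−1.34, adjusted p = 2.8e-06) and Plk2 (−0.28, adjusted p = 0.0246). Among the regulators it was higher for Chek1 (1.04, adjusted p = 3.1e-04) and lower for Trp53bp2 (−0.35, adjusted p = 2.3e-04) and Setd7 (−0.34, adjusted p = 5.5e-04). Bbc3, Gtse1, Dcxr, Ei24, Mdm4, Hipk2, Ppp1r13l and Ppp1r13b did not pass this test, and the same choice of genes applies. Day and batch cannot be told apart in any of these differences.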

How the results depend on the processing

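No called change of a member was reversed under any alternative tried. Values near 0 that did not pass the test changed sign without 1 library (Eda2r with the knockdown at d5, −0.13 to 0.19, and Zmat3 at d5 between Y/T dKD+FGF2 and Ctrl+vehicle, −0.05 to 0.05, among them). The number of members called did not move beyond 1.5 times with FGF2, between days within a group, or in Y/T dKD+FGF2 against Ctrl+vehicle. With the knockdown at d2.5 it was 5, and 3 to 5 without 1 library (3 without the third Ctrl+FGF2 replicate). With the knockdown at d5 it was 3, and 1 with DESeq2 and 1 to 2 without 1 library. It was 1 without Ctrl+FGF2 replicate 1 or 3 or Y/T dKD+FGF2 replicate 1 or 2. For the difference of the knockdown effects between days it was 4, and 2 with no filter on low counts, where Trp53 (0.19, adjusted p = 0.0549) and Zmat3 (0.19, adjusted p = 0.0709) were lost. Without 1 library it was 3 to 4. The cause was not tested.

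The correlations of same-numbered libraries' deviations were between −0.072 and 0.115, and those of differently numbered libraries between −0.122 and 0.089. At d5, Ctrl+vehicle and Ctrl+FGF2 had 0.097, 0.115 and 0.015 for replicates 1, 2 and 3. The crossed pairs of replicates 1 and 2 had −0.079 and −0.122. Whether replicate numbers paired these 2 groups at d5 is thus not settled. With a replicate block, 107 of the 110 member results kept their call. Zmat3 was lost at d5 with FGF2 (−0.14, adjusted p = 0.0563) and with the knockdown (0.15, adjusted p = 0.0575), as was Phlda3 between days in Y/T dKD+FGF2 (−0.15, adjusted p = 0.122).

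Both Zmat3 calls of d5 were also lost with upper-quartile scaling (adjusted p = 0.114 with FGF2 and 0.0668 with the knockdown) and with no filter (0.0530 and 0.0549), and that with FGF2 under the stricter filter (0.0532). Phlda3 with the knockdown at d5 was lost with all 18 libraries in 1 fit (0.0551). DESeq2 lost 4 member calls, all of the knockdown or of Zmat3 (Phlda3 at d5, adjusted p = 0.147; Eda2r at d2.5, 0.0672; Zmat3 at d5, 0.142, and with FGF2, 0.0992). Without the first Ctrl+FGF2 replicate of d5, Phlda3 with the knockdown was −0.12 (adjusted p = 0.232), and without the first Y/T dKD+FGF2 replicate Zmat3 was 0.09 (adjusted p = 0.269). With upper-quartile scaling, Mdm2 was lower at d5 in Ctrl+vehicle (−0.18, adjusted p = 0.00104), where that scaling moved the median of all genes to −0.11.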
